A study of Caenorhabditis elegans with 6 samples.

Results

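The genes described here encode 10 proteins that write or read the histone marks of heterochromatin in Caenorhabditis elegans. They were taken as a named list and placed by their coordinates on assembly WBcel235 (ce11). All 10 were measured, among 18647 protein-coding genes tested. The measurement was DNA adenine methyltransferase identification (DamID), in which the bacterial methyltransferase Dam marks GATC sequences close to the protein it is fused to. There were 2 groups of 3 libraries from embryos: strain BN1470, carrying Dam::EMR-1, and strain BN1465, carrying GFP::Dam. EMR-1 is worm emerin, which sits in the inner nuclear membrane, so methylation by its fusion marks DNA near the nuclear edge. GFP::Dam diffuses freely and serves as the reference for accessibility. The labels give the genotype of both strains as WT and the cell type as EMS, the early blastomere that gives rise to the gut and to part of the pharynx and muscles. Embryos came from adults grown for 72 h at 20 °C on bacteria lacking Dam. The promoter or switch that confines Dam to EMS is not named in the labels. Each construct is in 1 strain, so effects of strain and of construct cannot be told apart, and the assay reads no RNA with which to check the cell type.

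Heterochromatin is marked by methyl groups on lysine 9 or lysine 27 of histone H3. In worm embryos MET-2 adds the first methyl groups to lysine 9 and SET-25 completes them. Lysine 9 methylation is bound by readers such as the HP1 proteins and by CEC-4, which anchors marked chromatin at the nuclear envelope. MES-2, MES-3 and MES-6 form the worm Polycomb repressive complex that methylates lysine 27, while MES-4 methylates lysine 36 on germline genes and opposes it. The measurements here concern the position of the genes for these proteins, not the proteins or their marks.

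For each of the 3 replicate numbers the deposited tables hold a log2 ratio per GATC site and per bin of 2, 10 and 100 kb. Ratios are given as Dam::EMR-1 over GFP::Dam, an order inferred from the tables' names and from DamID convention. If the order were the other way round, every sign and every group assignment given here would turn. Each gene was given the mean ratio of the GATC sites that lie in it or within 500 bp of either end. "Depleted" and "enriched" mean a ratio below or above 0 at an adjusted p under 0.05 in limma, Benjamini-Hochberg adjusted over all genes, sites or bins tested. Whole reads per library were recovered from the ratios and the read sums. The libraries held 15719682 to 22407988 reads in Dam::EMR-1 and 16278015 to 17535839 in GFP::Dam. Levels per library are given as CPM, recovered reads scaled to the library's total. Separate cultures for the replicates are not named in the labels, and the p-values therefore cover the spread between these libraries, which may be technical.

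Of the 10 genes, 5 were depleted in Dam::EMR-1, none was enriched and 5 were not called. Across all tested genes 27.2% were depleted and 30.2% enriched. The median ratio of the 10 was -2.17, against 0.31 for all genes. The depleted genes were lin-61, mes-6, met-2, mes-4 and hpl-2. The genes not called were mes-2, set-25, set-32, hpl-1 and mes-3, of which only mes-3 had a mean ratio above 0. At an unadjusted p under 0.05, limma and edgeR's quasi-likelihood test on recovered reads also found 0 of the 10 enriched. At an adjusted p under 0.05 the latter called 2 of the 10 depleted, lin-61 and mes-4, where it called 17.1% of all genes depleted.

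**Figure D1:**
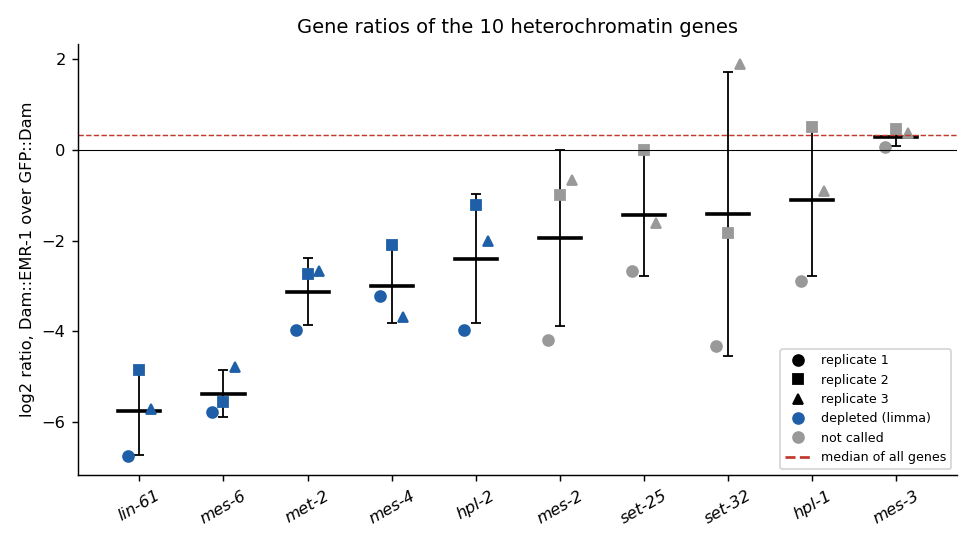
Log2 ratio of Dam::EMR-1 over GFP::Dam for each of the 10 genes, with 1 symbol per replicate, a bar at the mean and error bars of 1 SD (n = 3). The replicates of lin-61 and mes-6 all lay below -4, while those of set-32 ran from -4.33 to 1.89 and those of mes-3 lay close to the dashed median of all genes at 0.31.

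The first role is that of the lysine 9 methyltransferases. met-2 (R05D3.11, chromosome III 8375300 to 8380863) encodes the worm relative of SETDB1. Its 20 GATC sites carried 7, 100 and 281 recovered reads in Dam::EMR-1 replicates 1 to 3 and 811, 1060 and 667 in GFP::Dam, over the 19 sites where reads could be recovered. Each Dam::EMR-1 library was below each GFP::Dam library, and Dam::EMR-1 replicate 1 was nearly empty. The replicate ratios were -3.98, -2.74 and -2.67, with a mean of -3.13 ± 0.74 (SD, n = 3; limma, adjusted p = 0.0044). On summed reads edgeR's quasi-likelihood test gave a log2 change of -3.43 that did not pass (adjusted p = 0.072).

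set-25 (Y43F4B.3, chromosome III 13283824 to 13293090) encodes the enzyme that adds the final methyl group to lysine 9. Its reads numbered 77, 754 and 166 in Dam::EMR-1 and 674, 550 and 696 in GFP::Dam, over 13 of 15 sites. Dam::EMR-1 replicate 2 lay above all GFP::Dam libraries, so the groups overlapped. The ratios of -2.67, 0.001 and -1.62 gave a mean of -1.43 ± 1.34 (SD, n = 3) that did not pass in limma (adjusted p = 0.13), with an unadjusted 95% interval from -3.14 to 0.28. The long gene overlaps F56A8.8, all 6 of whose sites are also counted for set-25. Those 6 sites gave F56A8.8 a ratio of -2.14 ± 0.42 (SD, n = 3) that was depleted (limma, adjusted p = 0.030). set-25 also overlaps unc-64, the syntaxin gene, with 1 shared site.

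set-32 (C41G7.4, chromosome I 9519244 to 9521275) encodes a further SET-domain protein linked to heritable silencing by small RNAs. It rested on 3 sites with 3, 1 and 26 reads in Dam::EMR-1 and 113, 12 and 4 in GFP::Dam. The order of the groups changed between replicate numbers: the ratios were -4.33, -1.83 and 1.89. Their mean of -1.42 ± 3.13 (SD, n = 3) did not pass in limma (adjusted p = 0.33) and had a 95% interval from -4.08 to 1.24. Without replicate 3 it passed (-3.08; limma, adjusted p = 0.0498), and without replicate 1 it was 0.03. With 159 reads over all libraries, no direction was detectable at this depth.

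Among the readers, hpl-1 and hpl-2 encode the HP1 proteins of the worm. hpl-2 (K01G5.2, chromosome III 10752195 to 10755530) had 0, 47 and 31 reads in Dam::EMR-1 and 56, 328 and 209 in GFP::Dam, over 5 of 6 sites. The groups did not overlap, although the highest Dam::EMR-1 and the lowest GFP::Dam library were close. Ratios of -3.97, -1.22 and -2.01 gave -2.40 ± 1.41 (SD, n = 3; limma, adjusted p = 0.039). This call was lost without replicate 1 (-1.62; limma, adjusted p = 0.23), without replicate 3 (-2.59, adjusted p = 0.079), with the gene body alone (-1.77, adjusted p = 0.20), with the median over sites (-1.76, adjusted p = 0.21), with total-read scaling (-2.13, adjusted p = 0.062) and in edgeR's quasi-likelihood test (-3.66, adjusted p = 0.13).

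hpl-1 (K08H2.6, X 13245390 to 13247044) is the smallest of the 10 genes and has 3 sites. Reads numbered 12, 174 and 36 in Dam::EMR-1 and 140, 200 and 87 in GFP::Dam, with overlap through Dam::EMR-1 replicate 2. The mean ratio was -1.10 ± 1.69 (SD, n = 3), from -2.88, 0.49 and -0.90, and was not called in limma (adjusted p = 0.32; 95% interval -3.14 to 0.94). The ratio of hpl-2 was lower than that of hpl-1 in 3 of 3 replicates, with a log2 difference of -1.30 ± 0.35 (SD, n = 3). The exact two-sided sign-flip test gave p = 0.25, the smallest value 3 replicates allow. The order turned with the gene body alone, where hpl-1 rests on 1 site (-2.65 against -1.77 for hpl-2). It also turned with the median over sites (-1.94 against -1.76). In the other runs hpl-2 stayed lower. The mean of hpl-1 includes a site past the gene's end, at 13247389, with 19 reads and a mean ratio of 1.38.

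lin-61 (R06C7.7, chromosome I 7248827 to 7251282), whose product binds methylated lysine 9 through MBT repeats, had the lowest ratio of the 10. Its 8 sites held 38, 417 and 270 reads in Dam::EMR-1 and 13379, 10293 and 10152 in GFP::Dam. The groups lay far apart, and in CPM the GFP::Dam libraries together were 50.5-fold higher, or 29.2-fold without replicate 1 and 86.8-fold without replicate 2. Replicate ratios were -6.74, -4.84 and -5.71, with a mean of -5.76 ± 0.95 (SD, n = 3; limma, adjusted p = 2.5e-05). It was depleted under every alternative run, including edgeR's quasi-likelihood test without a replicate block (-6.27, adjusted p = 0.0051). Of all tested genes 2.67% had a lower ratio. The rank among the 10 depended on the setting. mes-6 was lower than lin-61 with the gene body alone (-6.87 against -6.46) and with the median over sites (-5.64 against -5.45). It was also lower in edgeR's quasi-likelihood test with a replicate block (-7.58 against -6.74). In the other runs lin-61 was the lower of the pair.

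The subunits of the lysine 27 methyltransferase differed from each other. mes-6 (C09G4.5, chromosome IV 8511284 to 8513469) encodes the relative of fly Extra sex combs. It had 0, 20 and 239 reads in Dam::EMR-1 and 1573, 1962 and 3427 in GFP::Dam, over 10 of 11 sites. The lowest GFP::Dam library was above the highest Dam::EMR-1 library. The ratios of -5.78, -5.55 and -4.78 averaged -5.37 ± 0.52 (SD, n = 3; limma, adjusted p = 8.8e-05). edgeR's quasi-likelihood test without a replicate block gave a log2 change of the same size, -5.39, that narrowly missed the threshold (adjusted p = 0.0535). mes-6 overlaps C09G4.4, which shares 6 of its sites and had a ratio of -6.05 ± 0.99 (SD, n = 3), so the 2 genes cannot be separated.

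mes-2 (R06A4.7, chromosome II 14383973 to 14388454) encodes the catalytic subunit, the relative of fly Enhancer of zeste. Dam::EMR-1 libraries held 11, 805 and 251 reads and GFP::Dam libraries 1088, 641 and 555, over 11 of 15 sites, and the groups overlapped through Dam::EMR-1 replicate 2. The mean ratio was -1.95 ± 1.94 (SD, n = 3) from -4.18, -0.996 and -0.66, just short of a call in limma (adjusted p = 0.059; unadjusted 95% interval -3.73 to -0.16). It passed without replicate 3 (-2.59; limma, adjusted p = 0.047) and with a pseudocount of 5 (-1.81, adjusted p = 0.031). The latter run also left out the 4 sites without recovered reads, so the pseudocount was not its only change. Without replicate 1 the mean ratio was -0.83.

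mes-3 (F54C1.3, chromosome I 4996835 to 5003202) encodes a further subunit of the complex and lies beside dom-3. It had 36, 21 and 527 reads in Dam::EMR-1 and 3, 4 and 321 in GFP::Dam, with overlapping groups. Its ratio of 0.29 ± 0.21 (SD, n = 3) was not called (limma, adjusted p = 0.76; 95% interval -1.45 to 2.03). The SD of the gene mean was small, but only 1 of the gene's 5 sites had reads in each of the 3 same-numbered pairs of libraries. A site with no read in a pair carries a constant, -0.59 in replicate 1 and -0.34 in replicate 2, which enters the mean and its SD. Single sites were also far apart: in replicate 3 neighbouring sites had ratios of -7.30, -7.63, 7.73 and 7.96. The latter pair held 237 and 277 reads, all in Dam::EMR-1 replicate 3. mes-6 was below mes-3 by 5.66 ± 0.45 and below mes-2 by 3.42 ± 1.59 on the log2 scale, in 3 of 3 replicates each (exact two-sided sign-flip test, p = 0.25, the smallest possible). The mes-3 values in the former difference include the constants.

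mes-4 (Y2H9A.1, chromosome V 13433050 to 13437545) encodes the lysine 36 methyltransferase. Reads numbered 199, 238 and 11 in Dam::EMR-1 and 2118, 2540 and 1900 in GFP::Dam, over 9 of 10 sites, without overlap. Ratios of -3.21, -2.10 and -3.69 gave a mean of -3.0 ± 0.81 (SD, n = 3; limma, adjusted p = 0.0026). It was depleted under every alternative run, with -4.75 in edgeR's quasi-likelihood test without a replicate block (adjusted p = 0.016).

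Ordered by mean ratio, the genes ran from lin-61 through mes-6, met-2, mes-4, hpl-2, mes-2, set-25, set-32 and hpl-1 to mes-3. Of the 9 steps between neighbours in this order, 1 exceeded the SD of its replicate differences, that from mes-6 to met-2 (2.24 ± 0.52, SD, n = 3). The other neighbours did not differ beyond their spread. Over all 16 differences computed between genes, the Benjamini-Hochberg adjusted exact p was at least 0.5.

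Read levels per library showed how each group contributed. With levels given per kb of gene and flanks, the median tested gene had 4.06 CPM per kb in Dam::EMR-1 and 2.18 in GFP::Dam. lin-61 had 4.22 ± 3.60 in Dam::EMR-1, close to that median, but 190.6 ± 27.2 in GFP::Dam (SD, n = 3), more than in 99.3% of genes. mes-6 and mes-4 had 42.5 ± 17.2 and 23.4 ± 4.47 CPM per kb in GFP::Dam (percentiles 95.4 and 90.7) and 1.57 ± 2.39 and 1.50 ± 1.32 in Dam::EMR-1 (percentiles 30.5 and 29.4; SD, n = 3). For hpl-2 the GFP::Dam level of 2.71 ± 1.96 was near the median gene, and the Dam::EMR-1 level of 0.37 ± 0.35 was at percentile 12.5 (SD, n = 3). lin-61 thus had a high GFP::Dam level and a middling Dam::EMR-1 level, and hpl-2 a middling GFP::Dam level and a low Dam::EMR-1 level.

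On the scale of log2(CPM + 1), the Dam::EMR-1 and GFP::Dam libraries did not overlap at 5 of the 10 genes, with Dam::EMR-1 lower at each. Among all genes the libraries did not overlap with Dam::EMR-1 lower at 25.5% and with Dam::EMR-1 higher at 36.7%. These were the 5 depleted genes, and each had p = 0.1 in a two-sided exact permutation test, the smallest value that 3 against 3 libraries allow. For the other 5 the exact p ran from 0.3 to 0.5. Without replicate 2 of each group the libraries did not overlap at 8 of the 10, with Dam::EMR-1 lower at each. In that setting this held for 32.1% of all genes, and 42.4% did not overlap with Dam::EMR-1 higher. Dam::EMR-1 replicate 1, the deepest library, had the lowest CPM of the 3 Dam::EMR-1 libraries at 7 of the 10 genes. The share of all genes with this order is not given here, so the count cannot be read as particular to these genes. The part of this library in the results was not tested beyond leaving out replicate 1.

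**Figure D2:**
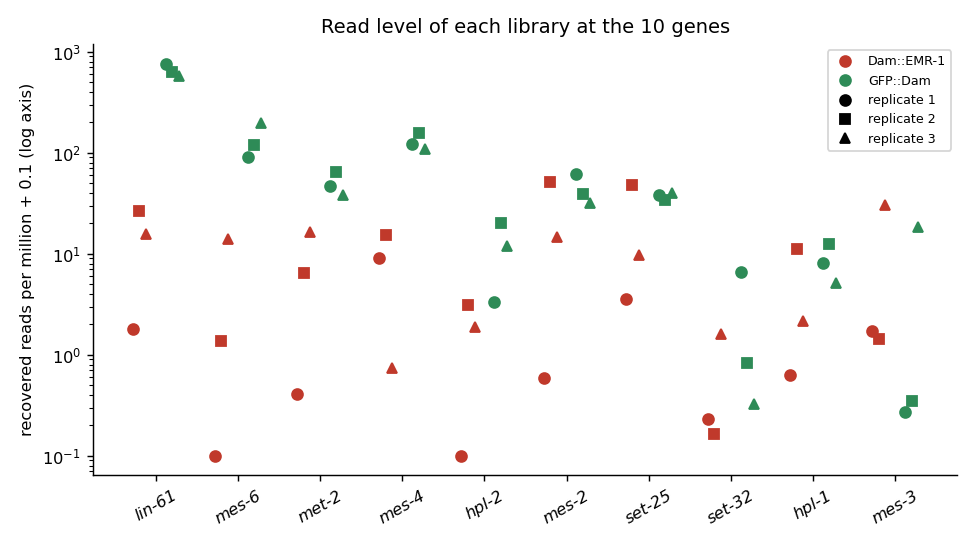
CPM plus 0.1, on a log axis, at each gene in the 3 Dam::EMR-1 (red) and 3 GFP::Dam (green) libraries, with 1 symbol per replicate. At lin-61 the GFP::Dam libraries had 581.0 to 763.0 CPM and the Dam::EMR-1 libraries 1.70 to 26.5, whereas at set-25, mes-2 and hpl-1 Dam::EMR-1 replicate 2 reached the GFP::Dam range.

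Single GATC sites showed where in each gene the difference lay. The 10 genes held 96 listed sites, of which 65 had at least 60 reads over the libraries and were tested. In limma 17 were depleted and 0 enriched, where 12.7% of all tested sites were depleted and 12.5% enriched. At an unadjusted p under 0.05, 30 were below 0 and 0 above. In the authors' deposited table, adjusted p-values under 0.05 were listed for 30 of the 96 sites, each with a negative average. Of all sites in the authors' deposited table, such a p came with a negative average at 16.0% and with a positive one at 15.3%. The depleted sites were 7 at mes-6, 4 at lin-61, 3 at mes-4 and 1 each at met-2, hpl-2 and mes-2. Some lay beside the gene body and not in it. These were the site of hpl-2 at 10755856, those of mes-6 at 8510962 and 8513639, that of lin-61 at 7251472 and that of mes-4 at 13437628. The gene rnf-113, 94 bp from hpl-2, shares 3 sites with it. None of these 17 calls was kept without any 1 of the replicates, when limma called no site of any gene in the genome. With 2 ratios, between 22 and 23 of the 65 were below 0 at an unadjusted p under 0.05.

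At lin-61 reads were concentrated on 3 neighbouring sites at the higher-coordinate end of the gene. The site at 7250948 held 4, 2 and 46 reads in Dam::EMR-1 and 6804, 5799 and 4962 in GFP::Dam, with a mean ratio of -9.71 ± 2.45 (SD, n = 3; limma, adjusted p = 0.012). The site at 7250276 held 5, 0 and 26 against 2470, 2663 and 2417 (-9.21 ± 2.53; limma, adjusted p = 0.014). The site at 7251129 held most of the gene's Dam::EMR-1 reads, 1, 395 and 183, against 3117, 1263 and 2061 in GFP::Dam, and was not called (-5.62 ± 4.90, SD, n = 3; limma, adjusted p = 0.081). Positions are those of the deposited table on ce11, chromosome I. A DamID fragment spans the stretch between neighbouring GATC sites, so neighbouring sites can share reads and are not separate measurements.

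At mes-6 the lowest sites were again a neighbouring pair at that end, at 8512976 and 8513279 on chromosome IV. The former had 0, 3 and 0 reads in Dam::EMR-1 and 494, 734 and 1491 in GFP::Dam (mean ratio -9.37 ± 1.43, SD, n = 3; limma, adjusted p = 0.012). The latter had none in Dam::EMR-1 and 353, 645 and 1422 in GFP::Dam (-9.79 ± 0.80; limma, adjusted p = 0.011). At mes-4 the sites at 13436979 and 13437628 on chromosome V held most reads of the gene, with 854 to 1305 in each GFP::Dam library and 2 to 117 in each Dam::EMR-1 library.

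met-2 differed from these in that its reads were spread over many shallow sites, of which the deepest held 19.1%. Of its 20 sites 12 had no read in any Dam::EMR-1 library. Only 8 had reads in each of the 3 same-numbered pairs of libraries, and 6 of these had a ratio below 0 in all 3 replicates. A site with no read in either library of a pair is listed at -0.59, -0.34 or -0.16 in replicates 1 to 3, the constant of the column, and such values enter the gene means. GFP::Dam reads at single sites of met-2 often came from 1 library: the site at 8377632 had 124 reads in GFP::Dam replicate 1 and none elsewhere. Over the 86 sites of the 10 genes with recovered reads, 12 had reads in only 1 library and 30 had none in Dam::EMR-1. The shares over all sites are not given here, so counts of empty sites cannot be read as particular to these genes.

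At set-25 and mes-2 sites of both signs lay within 1 gene. At set-25 the sites at 13288921 and 13289594 on chromosome III had 266 and 263 reads in Dam::EMR-1 replicate 2 and none in the other 2 Dam::EMR-1 libraries, and GFP::Dam held at most 14 in any library. The site at 13286452 had 0, 82 and 0 reads in Dam::EMR-1 and 247, 86 and 258 in GFP::Dam. The next site, at 13287073, had 44, 114 and 0 in Dam::EMR-1 and 316, 246 and 289 in GFP::Dam, where each library was above each Dam::EMR-1 library. At mes-2 the site at 14384411 was depleted (-4.89 ± 1.59; limma, adjusted p = 0.043), while the site at 14388359 near the other end had 402 reads in Dam::EMR-1 replicate 2 and a mean ratio of 2.89 ± 3.32 (SD, n = 3) that was not called.

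**Figure D3:**
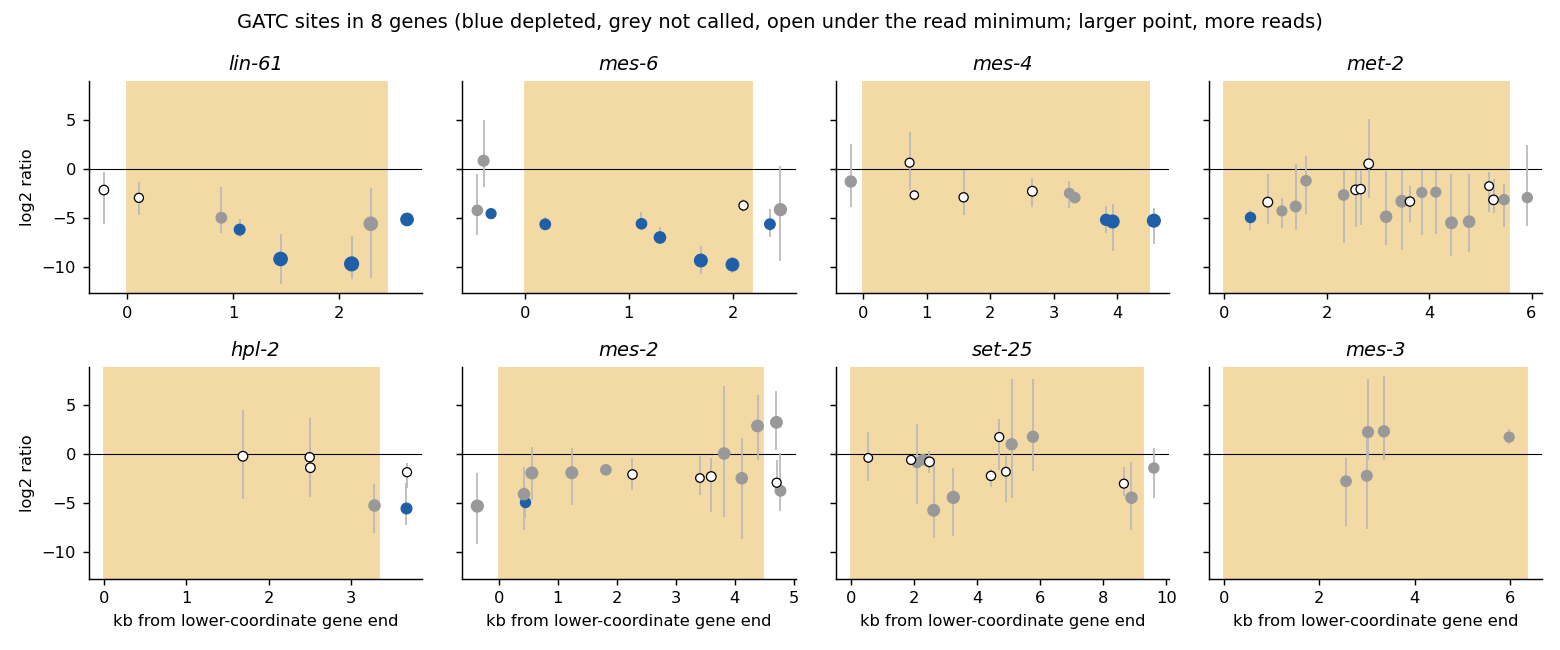
Mean log2 ratio at each GATC site of 8 genes against the distance in kb from the lower-coordinate gene end, with grey lines from the lowest to the highest replicate and the gene body shaded. Depleted sites (blue) lay mainly at lin-61, mes-6 and mes-4, and sites of set-25, mes-2 and mes-3 lay on both sides of 0.

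The surroundings of the genes were followed in bins of 2 kb up to 20 kb from each gene. Of 221 listed bins 196 had enough reads, and limma called 56 depleted and 9 enriched, against 17.2% and 19.2% of all tested bins. With any 1 replicate left out the depleted bins numbered 22 to 41 and the enriched ones 0 to 2. Depleted bins made up 52.6% of the tested bins around met-2, 50.0% around hpl-2 and 45.0% around set-32, but 10.0% around mes-6, 17.6% around mes-4 and 4.55% around mes-3. The lowest share was thus at mes-3, which also had 3 enriched bins and a flank mean of 1.22 ± 0.50 (SD, n = 3).

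The bins that overlap a gene were compared with the others within 20 kb. A bin was taken where any part of it overlaps the gene, so it can hold mostly other DNA. For hpl-1 and hpl-2 only 1 such bin each was tested. The gene's bins were lower than the flanks in all 3 replicates at 5 of the 10 genes, as they were at 28.9% of all genes. mes-4 stood in flanks with a mean ratio of 1.65 ± 0.78, and its own bins had -3.04 ± 1.15, a difference of -4.70 ± 1.90 (SD, n = 3). The gene minus its flanks was -5.05 ± 4.51 for mes-6 (-5.61 against -0.56) and -5.04 ± 1.99 for lin-61 (-7.10 against -2.06; SD, n = 3). The value of mes-6 rested on replicate 1, without which it was -2.46. For met-2 and hpl-2 the flanks were themselves low, at -4.62 ± 0.82 and -3.81 ± 1.15, and the differences were -1.18 ± 1.16 and -0.96 ± 0.60 (SD, n = 3), or -0.57 for met-2 without replicate 1. With flanks of 10 kb, or with no read minimum, the difference of hpl-2 turned to 0.30 and 1.08. Each of these 5 differences had an exact two-sided sign-flip p of 0.25, the smallest possible.

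The other genes were not below their flanks in all replicates. set-25 was above them in 3 of 3 replicates by 0.85 ± 0.71 (-2.12 against -2.97), which turned to -0.19 with flanks of 10 kb. set-32 had a mean difference of 2.17 ± 4.69 (SD, n = 3), from -3.24, 4.55 and 5.19. Of its 2 bins 1 held 773 reads over all libraries, against 159 at the gene's own sites. That bin had a ratio of 4.53 in replicate 2, where the gene had -1.83, so the difference is not that of the gene alone. set-32 lay at the edge of a run of depleted bins: 9 flanking bins on its lower-coordinate side were depleted and 0 on the other. The differences of hpl-1, mes-2 and mes-3 were -0.24 ± 3.35, -0.27 ± 4.19 and 0.15 ± 1.46 (SD, n = 3; exact sign-flip p = 1 for each). The lowest bin counted for mes-2 (-5.90) ends at 14384000, just past the gene's lower end at 14383973, so little of it lies in the gene.

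**Figure D4:**
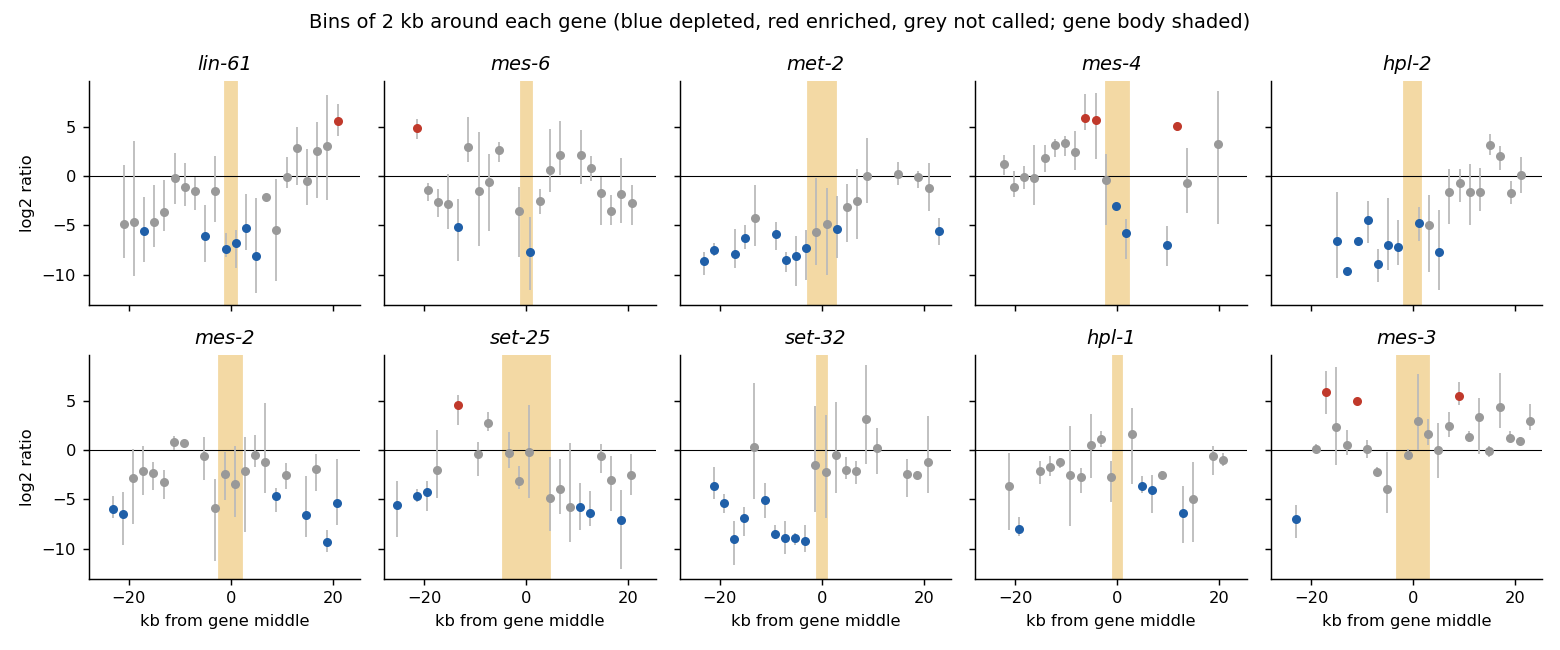
Mean log2 ratio of bins of 2 kb within 20 kb of each gene, against the distance in kb from the gene's middle, with grey lines from the lowest to the highest replicate and the gene body shaded. Depleted bins (blue) flanked met-2, hpl-2 and set-32 mainly on the lower-coordinate side, while mes-4 had enriched bins (red) on both sides and 1 depleted bin in its flanks.

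At larger scale the order of the genes changed. The bins of 100 kb that hold the genes had their lowest mean ratio at met-2 (-3.66 ± 0.39), followed by set-32 (-2.83 ± 0.30) and hpl-2 (-2.16 ± 0.38; SD, n = 3). The bin of set-25 was at 2.13 ± 0.29, above 0 in 3 of 3 replicates, while the gene itself had a negative mean. The bin of mes-6 was at 0.66 ± 0.48 and that of mes-4 at -0.28 ± 0.15 (SD, n = 3), so both depleted genes lay in stretches with ratios near 0. With each chromosome divided into 3 segments of equal length, 4 of the 5 genes in middle segments were depleted (lin-61, mes-6, met-2 and mes-4) and 1 of the 5 in outer segments (hpl-2). Among all genes 37.1% were depleted in middle and 21.0% in outer segments. Set against the median gene of their own segment, 8 of the 10 were lower, with differences of -4.64 for mes-6, -3.85 for lin-61 and -3.31 for mes-4 but -0.69 for met-2, whose segment of chromosome III had a median of -2.44. set-32 and mes-3 were above theirs, by 0.49 and 0.51.

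Of the 20 nearest tested genes on either side of the 10, 9 were depleted, 1 was enriched and 10 were not called in limma. Among all tested genes 27.2% were depleted and 30.2% enriched. GATC sites were shared between a neighbour and its heterochromatin gene in 10 of the 20 cases, so these values are not independent. The enriched one was srd-17, a chemoreceptor gene 336 bp from mes-4, with 2.16 ± 1.33 (SD, n = 3; adjusted p = 0.040), beside the -3.0 of mes-4 itself, with which it shares 1 GATC site. On the other side of mes-4, Y2H9A.6, 6290 bp away, had -7.02 ± 1.96 (SD, n = 3; limma, adjusted p = 0.00015). bub-1, the mitotic checkpoint kinase beside lin-61, had -5.35 ± 1.42 and was depleted, as was cks-1, a cyclin-dependent kinase subunit beside mes-6, with -3.54 ± 1.89 (SD, n = 3). Of the 4 sites of cks-1, 2 are also counted for mes-6, and of the 13 of bub-1, 1 is also counted for lin-61. On either side of set-25 the nuclear pore gene npp-18 (-3.55 ± 1.78) and the cleavage factor gene cpf-2 (-3.1 ± 0.18) were depleted (SD, n = 3). They lie 3763 and 14941 bp from set-25, which was not called. K08H2.5 and K08H2.7 beside hpl-1 had 1.99 ± 0.86 and 2.25 ± 0.27 and were not called (limma, adjusted p = 0.053 and 0.058; SD, n = 3).

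A wider list of 46 genes of related chromatin pathways was examined in the same fit, of which 45 were measured. lin-65, a partner of MET-2, had no listed site and was not analysed here. Of the 45, 35 were depleted, 1 was enriched and 9 were not called in limma, with a median ratio of -3.32. Among all tested genes 27.2% were depleted and 30.2% enriched, the shares to set beside the counts by role below. In edgeR's quasi-likelihood test without a replicate block 19 of the 45 were depleted and 1 enriched, against 17.1% and 17.2% of all genes. Of the 19, 18 were also depleted in limma. The other was efl-1, an E2F gene, named after its values were seen: it had 54, 109 and 76 reads in Dam::EMR-1 and 712, 642 and 600 in GFP::Dam (log2 change -3.81; edgeR, adjusted p = 0.014). Its mean over sites was 0.37 ± 0.65 (SD, n = 3; limma, adjusted p = 0.68). In limma 20 of the 21 listed genes in middle segments were depleted and 15 of the 24 in outer segments. Among all genes the shares depleted there were 37.1% and 21.0%.

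Both measured partners of the lysine 9 pathway were depleted: cec-4, the chromodomain anchor at the nuclear envelope, with -4.75 ± 0.75, and arle-14, a partner of MET-2, with -4.44 ± 0.65 (SD, n = 3; limma, adjusted p = 0.00056 and 0.00080). cec-4 held 1, 1 and 5 reads in Dam::EMR-1 and 446, 798 and 980 in GFP::Dam. The other chromodomain readers were depleted too, 3 of 3: cec-1 (-6.50 ± 1.14), cec-6 (-4.01 ± 0.64) and cec-3 (-2.82 ± 1.57; SD, n = 3). cec-3 did not pass without replicate 1 (-2.12; limma, adjusted p = 0.12), without replicate 2 (-2.67, adjusted p = 0.068), with the gene body alone (-0.80, adjusted p = 0.63), with the median over sites (-2.60, adjusted p = 0.059) or in edgeR's quasi-likelihood test (-2.58, adjusted p = 0.34). arle-14 was just short of a call in the latter (-4.48, adjusted p = 0.063).

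The exception was set-11, which encodes a SET-domain protein of the family of lysine 9 methyltransferases and lies in the left segment of chromosome II. It was the 1 enriched gene of the list, with 3374, 568 and 385 reads in Dam::EMR-1 and 1, 1 and 0 in GFP::Dam over 3 sites. The ratios were 8.48, 5.88 and 6.07, with a mean of 6.81 ± 1.45 (SD, n = 3; limma, adjusted p = 8.3e-05; edgeR's quasi-likelihood test, adjusted p = 0.0049). It was called in every alternative run. set-6, the other lysine 9 candidate, had -0.56 ± 1.196 (SD, n = 3) and was not called.

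Of the genes listed as lysine 9 and lysine 27 demethylases 4 of 5 were depleted. Among them were utx-1 (-3.68 ± 0.86), which acts on lysine 27, jmjd-3.1 (-2.96 ± 0.81) and jmjd-2 (-3.54 ± 1.76; SD, n = 3). In the nuclear RNA interference pathway, which directs lysine 9 methylation by small RNAs, 5 of 6 were depleted, with -4.30 ± 0.67 for the Argonaute gene nrde-3, -4.24 ± 0.34 for nrde-2 and -4.19 ± 0.62 for morc-1 (SD, n = 3). Of 13 genes of the synMuv B, DREAM and NuRD groups, repressors of germline genes in somatic cells, 11 were depleted. They include mep-1 (-4.91 ± 0.65), lin-53 (-5.99 ± 1.33) and lin-35, the Rb homologue (-4.18 ± 0.87; SD, n = 3). mep-1 and lin-35 did not pass in edgeR's quasi-likelihood test without a replicate block (adjusted p = 0.20 and 0.059), nor did utx-1 (0.054) and jmjd-2 (0.12).

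Of the PRC1-like genes spat-3 (-4.23 ± 1.51) and mig-32 (-2.26 ± 1.48) were depleted, and sop-2 had -0.98 ± 0.34 without a call (SD, n = 3). mig-32 was lost without replicate 1 (-1.94; limma, adjusted p = 0.17) and without replicate 2 (-1.74, adjusted p = 0.20), and it was lost under most other alternatives too. Among 9 genes for lysine 36 and lysine 4 methylation or its removal 6 were depleted, including wdr-5.1 (-3.32 ± 0.46), set-2 (-3.63 ± 0.22) and rbr-2 (-3.70 ± 0.76). Both enzymes for lysine 20 of histone H4 were depleted, set-1 with -5.17 ± 1.37 and set-4 with -5.04 ± 2.34 (SD, n = 3). wdr-5.1, whose log2 change on summed reads was -1.66, rbr-2 (-3.83) and spat-3 (-3.22) did not pass in edgeR's quasi-likelihood test without a replicate block (adjusted p = 0.49, 0.11 and 0.13).

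**Figure D5:**
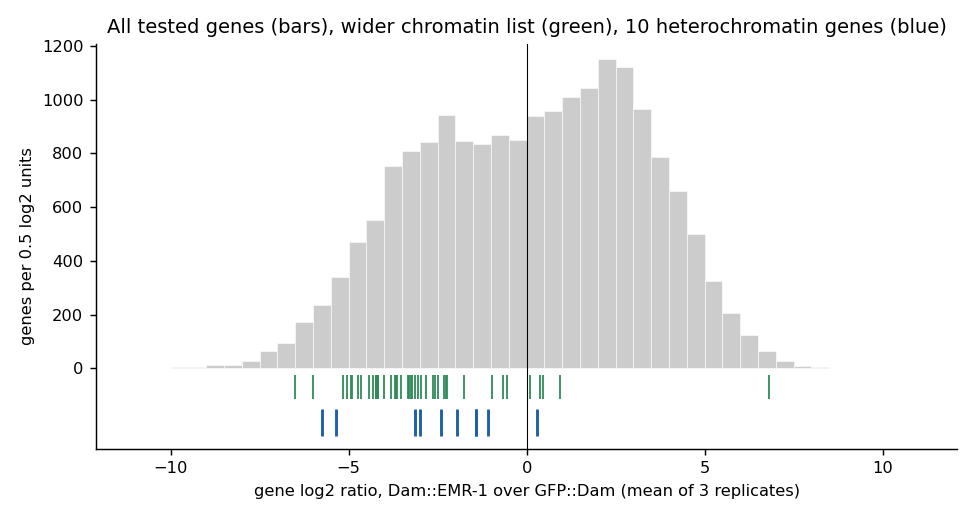
Histogram of the mean log2 ratio of all 18647 tested genes, with ticks below it for the 45 measured genes of the wider list (green) and the 10 heterochromatin genes (blue). Most ticks lay below 0, and set-11 lay alone at 6.81.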

How the data were processed

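The authors deposited 1 table of 173752 GATC sites and 3 tables of bins (2, 10 and 100 kb wide). Per the file headers, the columns are a log2 ratio per replicate number, the count of raw reads over all libraries, and the authors' own mean log2 ratio with its adjusted p-value. The submitters' processing notes name build ce11 and DESeq2 but give neither a role nor a version number. The aligner is not given in the sources used here. From the values, each ratio is log2 of (reads + 1) in one group over (reads + 1) in the other, taken between same-numbered libraries and shifted by 1 constant per column. Whole reads were recovered to within 4e-12 in log2, uniquely for 90.2% of sites and 90.1% of 2-kb bins. Other sites were left out of read counts but kept in ratios. Depths come from the 100-kb table. Counts are PCR reads without molecular identifiers.

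limma 3.58.1 was fitted with an intercept only on the 3 ratios, with a variance trend on log2 reads and robust estimation, after removal of entries under 60 reads. edgeR 4.0.16 with TMM was run on recovered reads. Tests were tried on simulated data. Gene coordinates came from the RefSeq gene table of WBcel235, in which all 10 genes matched by symbol. Strand and exon structure were not used here. The members, the wider list and the tests were chosen with earlier results of these data known. Named beside the 10 genes are the nearest tested gene on each side and up to 3 genes per role of the wider list with the smallest adjusted p. The alternatives left out the read minimum, scaled by total reads, used a pseudocount of 5, an adjusted p of 0.01, the gene body alone, the median over sites, edgeR with and without a replicate block or flanks of 10 kb, and left out each replicate in turn.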

Additional observations from a re-analysis of the deposited data

How the results depend on the processing

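lin-61 and mes-4 were depleted, and set-11 enriched, under every alternative run. Of the 10 genes, edgeR's quasi-likelihood test called 2 depleted without and 3 with the replicate block, against 5 in limma, and of the wider list 19 in either fit against 35, of which 18 were shared with limma. The gene gained with the block was mes-6 (-7.58; edgeR, adjusted p = 0.033); in the wider list the block also brought mep-1, lin-35 and utx-1 past the threshold (adjusted p = 0.047, 0.0498 and 0.0497) and lost met-1, mrg-1 and set-4. Same-numbered libraries did not deviate together (correlations of -0.032, -0.024 and -0.009 over genes), so the numbers do not pair the libraries beyond the authors' ratios. Leaving out 1 replicate gave 4 to 6 depleted of the 10 genes and 28 to 33 of the wider list. At an adjusted p of 0.01 the counts were 0 of 17 depleted GATC sites, 12 of 56 depleted and 0 of 9 enriched 2-kb bins. Without 1 replicate, limma called 0 sites depleted in each case (22 to 23 at an unadjusted p under 0.05), 22 to 41 bins depleted and 0 to 2 enriched (10 to 15 at an unadjusted p under 0.05). Within 10 kb 31 bins were depleted, fewer bins being tested. Total-read scaling, which raised 2-kb ratios by 0.62 and gene ratios by 0.26 on average, gave 16 enriched bins. The difference of a gene from its flanks reversed for set-25 (-0.19) and hpl-2 (0.30) within 10 kb, and for hpl-1 (1.32) and hpl-2 (1.08) with no read minimum. Without 1 replicate it ranged from -1.81 to 1.52 for hpl-1, from -1.86 to 2.10 for mes-2, from -0.66 to 0.75 for mes-3 and from -6.58 to -2.46 for mes-6. With 1 replicate left out, the libraries did not overlap with Dam::EMR-1 lower at 5 to 8 of the 10 genes. They did not overlap with Dam::EMR-1 higher at 1 gene, mes-3, without replicate 3, and at 0 without replicate 1 or 2. Over all genes the shares were 30.6% to 32.1% with Dam::EMR-1 lower and 42.4% to 44.2% with it higher. For set-32 the library difference with 1 replicate left out ranged from -1.71 to 0.16 and the ratio from -3.08 to 0.031. Apart from the smaller number of bins or replicates, the cause was not tested. Few reads at set-32, hpl-1, hpl-2 and mes-3 limit what their ratios can show.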
